A study of Mus musculus with 30 samples.

Results

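The NRF2 oxidative stress genes described here are 10 antioxidant genes of the mouse: Hmox1, Srxn1, Prdx1, Txnrd1, Gclc, Gclm, Slc7a11, Gsr, Nqo1 and Sqstm1. They were found by name as all non-control probes carrying one of these gene names, which gave 14 probes of 55681 on the array and 10 genes of 25169 tested. All 10 genes passed the filter on dim probes. Transcripts of peripheral blood mononuclear cells (PBMC) were measured in female C57BL/6 mice aged 6 weeks, all under xylazine and ketamine anaesthesia at injection. Oleic acid (OA), the fatty acid used to cause acute lung injury in animals, was injected at 1.2 µl/g in 200 µl into the tail vein of the treated mice. The control mice received 200 µl of physiological serum by the same route. Blood was taken at 1, 1.5, 3, 4, 18 or 24 h, with 3, 3, 3, 2, 3 and 3 arrays of OA mice and 3, 3, 2, 1, 2 and 2 arrays of serum mice. With 30 mice in the series text and 30 arrays, an array stands for a mouse. PBMC were collected over Ficoll of density 1.084. Besides monocyte, T cell, B cell and NK cell markers, those of neutrophils, platelets and erythroid cells were also above background.

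NRF2 (gene Nfe2l2) is a transcription factor that cells keep at a low level through KEAP1, an adaptor that hands it to a CUL3 and RBX1 ubiquitin ligase for degradation. Electrophiles and oxidants modify KEAP1, NRF2 then accumulates, pairs with a small MAF protein and binds antioxidant response elements near its target genes, while BACH1 occupies the same elements and represses them. In blood, the targets serve heme removal, glutathione synthesis, peroxide removal and the defence of red cells, platelets and phagocytes against their own oxidants.

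The core of the antioxidant response element, TGACNNNGC, was searched on both strands of RefSeq promoter windows (GRCm38.p6, 250 bases before to 50 bases after the start). It was present in 4 of 9 windows of the members and in 12.4% of 32851 windows of all genes. These 9 windows belong to 7 of the genes, Srxn1, Gclm, Prdx1, Txnrd1 (3 windows), Slc7a11, Nqo1 and Sqstm1, and the last 3 had no match in their window. The matches are shown because they are the letters that the family's name refers to. Each lies on the strand opposite to the gene, so that the capitals read GCNNNGTCA on the gene's own strand.
Srxn1, chr2:152105542-152105570, + strand: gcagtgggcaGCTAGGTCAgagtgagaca
Gclm, chr3:122245413-122245441, + strand: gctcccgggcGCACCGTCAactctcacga
Prdx1, chr4:116685456-116685484, + strand: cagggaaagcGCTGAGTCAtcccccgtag
Txnrd1, chr10:82859104-82859132, + strand: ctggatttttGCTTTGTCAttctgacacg
The first base of the match stands at position -134 from the start in Gclm, at -133 in Prdx1 and at -92 in Txnrd1. In Srxn1 it stands at position 29, where the start base is 1. The Prdx1 match overlaps the AP-1 letters TGANTCA, and the others do not. A match in a window is a description and not a bound site.

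The measured probes are 60 bases long, and the first 30 bases are shown for the genes whose values matter most below, with the position of the whole probe in mm9 as the array files give it. Both Hmox1 probes are shown because they gave differences of unequal size and, at some times, of opposite sign.
Hmox1, brighter probe, chr8:77624207-77624266, + strand: atggttgtaagcatccatgttgactgacca
Hmox1, dimmer probe, chr8:77620797-77620856, + strand: atagagcgcaacaagcagaacccagtctat
Srxn1, chr2:151937009-151937068, + strand: gaagaatgtatgggaactctagtctctgca
Gclc, chr9:77641296-77641355, + strand: agtgaactggcttgtacattttgaattctt
Txnrd1, chr10:82360230-82360289, + strand: cctttcaagtctgccagtctctgagatcag
Exon and UTR positions of the probes are not used here.

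Values are log2 levels, the base-2 logarithm of an array's processed signal minus that array's 75th percentile over all probes, so that 0 is the 75th percentile. The percentile itself ranged from 37.7 to 136 signal units, and the share of probes well above background from 34.5% to 64.4%. Arrays came from 5 slides, and slide 5 held 5 OA arrays and no serum array. The arrays of slide 5 were scanned on 1 of 2 scan days, and all other arrays on the other day. In 3 arrays the median correlation with the others was below 0.9, namely OA 4 h replicate 2 (0.850) and, among serum arrays, replicate 1 of 24 h (0.813) and replicate 3 of 1.5 h (0.895). Precision is limited by the number of arrays, most of all at 4 h, where serum has 1 array.

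Across the 6 times, few of the 10 genes passed limma's adjusted threshold. At 1, 1.5, 3, 4 and 18 h, 0 of the 10 genes passed limma's adjusted p of 0.05, and neither did any other gene (0% called of 25169 at 1, 1.5 and 3 h, of 25157 at 4 h and of 25168 at 18 h). At 24 h, 2 of 10 passed, Gclc and Txnrd1, both higher after OA, against 31.5% of all 25169 genes called at that time. At an unadjusted p under 0.05, 1 member stood out at 1 h (5.12% of all genes) and 2 at 1.5 h (10.1%). There were 0 at 3 h (7.78% of all genes), 1 at 4 h (10.5%) and 0 at 18 h (1% of all genes). At 24 h 4 members reached it, against 47.1% of all genes.

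The direction of the members differed between times. Their median log2 difference of OA minus serum was 0.40 at 1 h, where the median of all genes was -0.05, and all 10 lay above 0. Of these, Slc7a11 was well above background on none of the 1 h arrays, and the second probes of Hmox1, Prdx1 and Sqstm1 stood at -0.21, -0.08 and -0.83 at that time. The median was 0.21 at 1.5 h against 0.10 for all genes, with 8 of 10 above 0. At 3 h it was 0.51 against 0.13, with 9 of 10 above 0. At 4 h it was -0.76 against -0.17, with 2 of 10 above 0, and without the 3 arrays that stood apart it was -0.15 against -0.03, with 4 of 10 above 0. At 18 h the members' median was 0.01 against -0.06, with 5 of 10 above 0. At 24 h it was 0.54 against 0.05, with 8 of 10 above 0. Scaled to the median of probes always well above background, the median of all genes moved to -0.21, -0.17, -0.04, 0.40, -0.05 and -0.55 at the 6 times, and the members' median changed sign at 1.5 h (-0.05) and 24 h (-0.07), with 9 of 10 above 0 at 1 h. With quantile normalization the members' median was -0.06 at 1.5 h and -0.01 at 18 h, and with the authors' processed values it was -0.03 at 1.5 h. At 24 h the members' median stood 0.48 above that of all genes with both the 75th percentile and the median of always detected probes as the scale, 0.16 with quantile normalization and 0.10 with the authors' values.

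**Figure D1:**
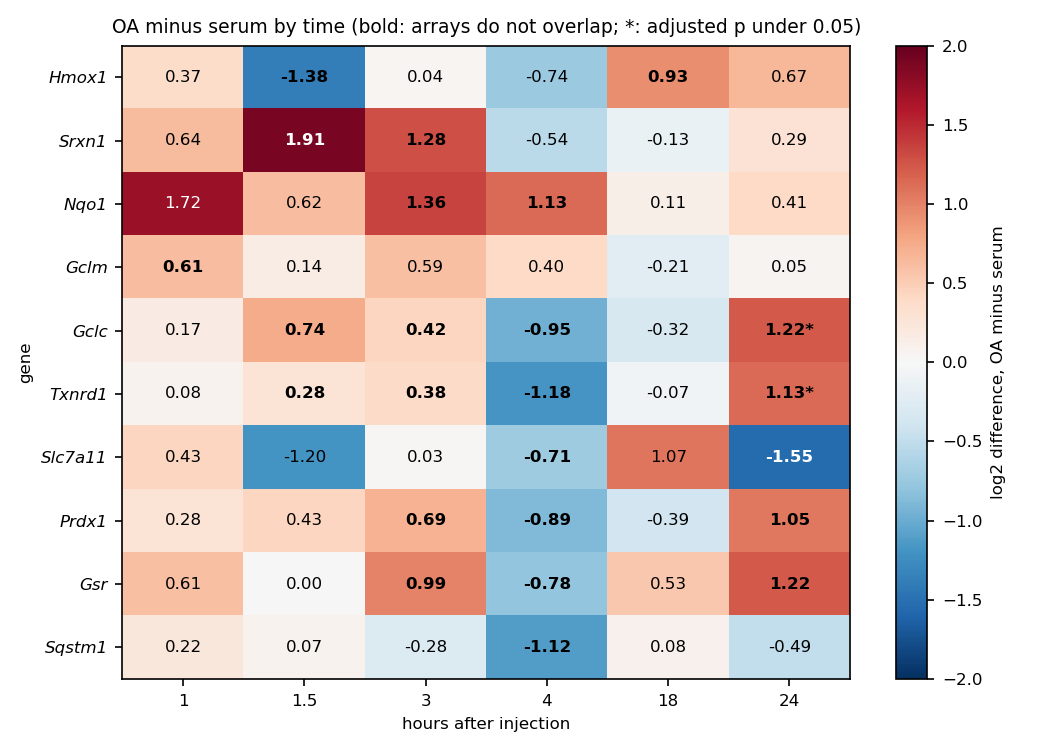
Log2 difference of OA minus serum for each of the 10 genes (rows) at each time in hours after injection (columns), with red for higher and blue for lower after OA. Bold values mark genes whose OA and serum arrays do not overlap, and asterisks mark the 2 differences with a limma adjusted p under 0.05, Gclc and Txnrd1 at 24 h.

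Groups without overlap are common in a design of 1 to 3 arrays a group, and their share among all genes is the measure to read the members against. At 1 h the OA arrays lay wholly above the serum arrays for 1 member (Gclm), against 3.27% of all genes, and wholly below for 0 members (8.21%; 11.5% in either direction). At 1.5 h they did so for 3 members (Srxn1, Gclc and Txnrd1; 18.5% of all genes) and lay wholly below for Hmox1 (7.02%; 25.5% in either direction). At 3 h they lay wholly above for 6 members (Srxn1, Nqo1, Gclc, Txnrd1, Prdx1 and Gsr), against 17.7% of all genes, and wholly below for 0 members (13% of all genes; 30.7% in either direction). At 4 h, against a single serum array, 1 member lay wholly above (Nqo1; 31% of all genes) and 6 wholly below (41%; 71.9% in either direction). Slc7a11, among the 6, was well above background on none of the 4 h arrays, and Nqo1 was so on OA replicate 1 alone. At 18 h Hmox1 alone of the 10 lay wholly above (2.67% of all genes), and 0 lay wholly below (4.19%; 6.86% in either direction). At 24 h 4 members lay wholly above (Gclc, Txnrd1, Prdx1 and Gsr; 27.5%) and Slc7a11 wholly below (28.8%; 56.3% in either direction).

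**Figure D2:**
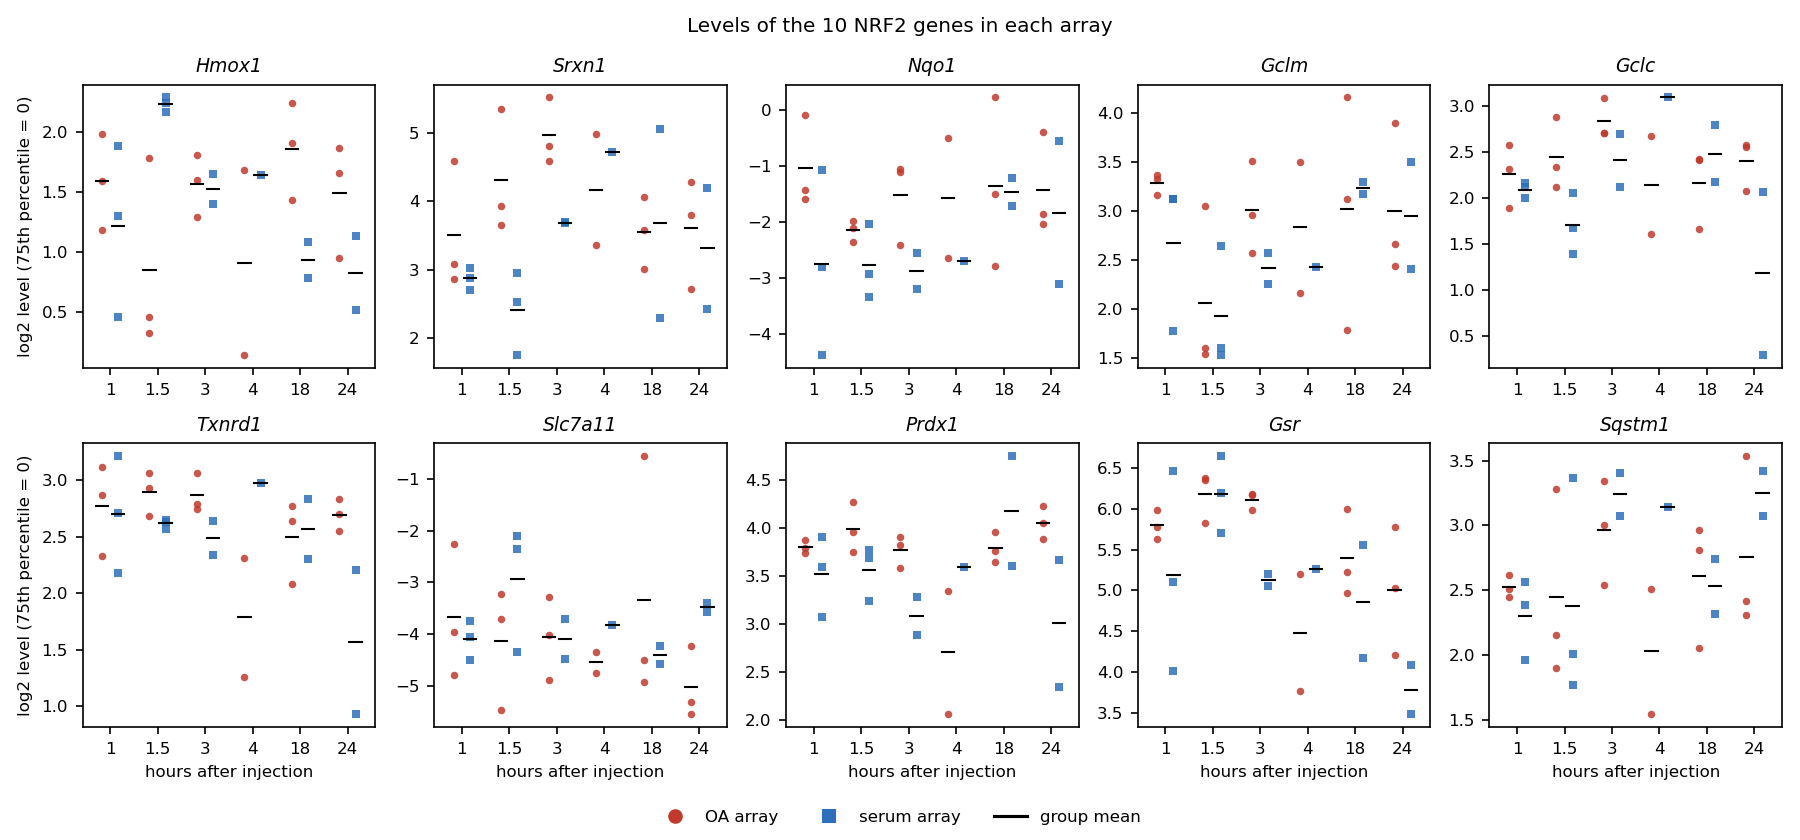
Log2 level of each of the 10 genes (panels) in every array by hours after injection, with OA arrays as red circles left of serum arrays as blue squares and group means as bars. The 3 serum arrays of Hmox1 at 1.5 h sit between 2.16 and 2.29, above all 3 OA arrays of that time.

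Hmox1 encodes heme oxygenase 1, which opens the heme ring to biliverdin, iron and carbon monoxide. At 1.5 h its level was 0.45, 1.78 and 0.32 in OA mice, against 2.29, 2.24 and 2.16 in serum mice. All 3 OA arrays lay below all 3 serum arrays, and the serum arrays were close together while OA replicate 2 stood nearer to them than the other OA arrays did. The difference was -1.38 (SE 0.44, n = 3 and 3, limma adjusted p = 0.470). Within slide 3 it was -0.46 and within slide 4 it was -1.84, with 1 array of each treatment on each slide. Without the 3 arrays that stood apart it was -1.41. The serum group at 1.5 h had the highest mean of the 12 groups, 2.23, and the OA group of that time was among the lowest at 0.85, next to OA at 4 h (0.91) and serum at 24 h (0.82).

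At 18 h the Hmox1 groups stood the other way. The level was 1.43, 1.91 and 2.24 in OA mice, against 0.78 and 1.08 in serum mice. Every OA array was above both serum arrays, with a difference of 0.93 (SE 0.49, limma adjusted p = 1.00) that did not pass, and a value of 0.83 within slide 2. At 1 h the level was 1.98, 1.59 and 1.18 in OA mice against 0.46, 1.30 and 1.88 in serum mice, and the groups overlapped. At 3 h it was 1.81, 1.29 and 1.59 in OA mice against 1.40 and 1.65 in serum mice, a difference of 0.04. The OA arrays at 4 h read 1.68 and 0.14, against 1.64 in the serum array. At 24 h OA arrays read 0.95, 1.86 and 1.65, against 0.51 and 1.13 in serum arrays. In these 4 comparisons the Hmox1 groups overlapped.

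The 18 h and 24 h differences of Hmox1 together exceeded those of the 4 earlier times by 1.22 (SE 0.43, limma adjusted p = 0.254). The test of whether its difference varied over the 6 times gave a limma adjusted p of 0.248. Neither passed after adjustment over all genes. In serum mice alone Hmox1 stood at -0.78 at the late times relative to the early ones (SE 0.33, limma adjusted p = 0.437), and in OA mice at 0.45 (SE 0.27, limma adjusted p = 0.455). Averaged over the 6 times the OA difference was -0.02 (SE 0.21).

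The dimmer Hmox1 probe, also well above background on all 30 arrays, shared the sign of the brighter probe at 1.5 and 18 h, with smaller values, and had the opposite sign at the other 4 times. It read -0.65, -0.63 and -1.49 in OA mice at 1.5 h, against -0.10, -0.41 and 0.36 in serum mice, a difference of -0.88 (SE 0.55, limma adjusted p = 0.553). Here too the OA arrays lay below the serum arrays. At 18 h its difference was 0.30 (SE 0.62) and the groups overlapped. At 1, 3, 4 and 24 h the dimmer probe differed by -0.21, -0.72, 0.73 and -0.08, where the brighter probe differed by 0.37, 0.04, -0.74 and 0.67. None of these differences passed.

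**Figure D3:**
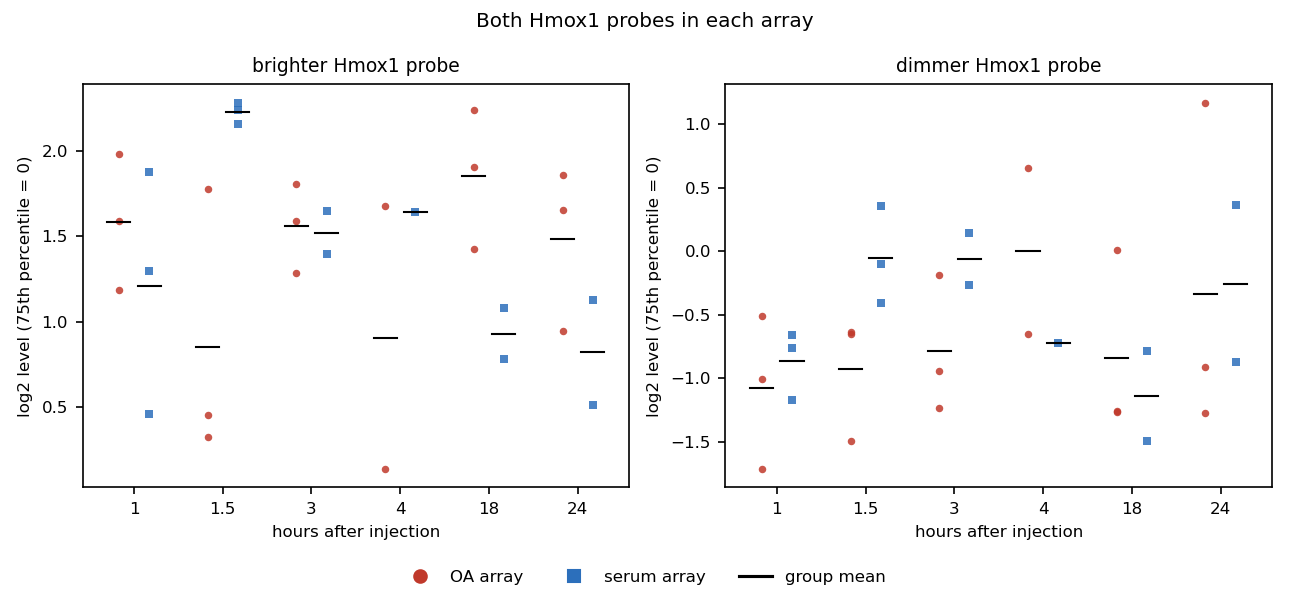
Log2 level of the brighter (left) and the dimmer (right) Hmox1 probe in every array by hours after injection, with OA as red circles, serum as blue squares and bars for group means. Both probes are lower in OA than in serum at 1.5 h, by 1.38 on the log2 scale for the brighter and 0.88 for the dimmer.

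Among the enzymes of the thioredoxin arm, Srxn1 had the largest early difference of the 10 genes. It encodes sulfiredoxin, which restores peroxiredoxins after hyperoxidation. At 1.5 h its level was 3.66, 5.35 and 3.93 in OA mice, against 2.95, 2.52 and 1.75 in serum mice, and the groups did not overlap. The difference was 1.91 (SE 0.66, limma adjusted p = 0.470), with 2.83 within slide 3 and 2.18 within slide 4, and 1.58 without the 3 arrays that stood apart. At 3 h it read 4.60, 4.81 and 5.52 in OA mice, against 3.68 and 3.70 in serum mice, again without overlap, with a difference of 1.28 (SE 0.74, limma adjusted p = 0.670). Neither difference passed the adjusted threshold.

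Platelet markers moved with Srxn1 at both times. The list of 8 platelet markers, among them Pf4 and Itga2b, had a mean log2 level of 6.67 ± 0.88 in OA mice at 1.5 h, against 4.79 ± 0.64 in serum mice (SD, n = 3 each), a difference of 1.88 beside the 1.91 of Srxn1. Its summed level, the sum of linear values relative to the 75th percentile, was 1129 to 3041 in OA mice and 301 to 623 in serum mice. At 3 h the list stood at 7.48 ± 0.31 in OA mice (n = 3), against 6.21 ± 0.01 in serum mice (n = 2), a difference of 1.28. All 8 platelet markers were well above background on each array of these groups. Their part in the Srxn1 difference was not tested. In bulk RNA such as this, fewer cells of a type and less RNA per cell cannot be told apart, and the same holds for more of either.

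At the other times Srxn1 overlapped between treatments. At 1 h it read 2.87, 4.59 and 3.08 in OA mice against 2.88, 3.03 and 2.71 in serum mice. At 4 h it read 4.98 and 3.36 in OA mice, against 4.71 in the serum array. At 18 h it read 3.58, 4.06 and 3.01 in OA mice, against 2.30 and 5.05 in serum mice, the widest spread of any Srxn1 group. At 24 h it read 3.80, 4.29 and 2.73 in OA mice, against 2.44 in serum replicate 1, while serum replicate 2 lay between the 2 highest OA arrays. Over the 12 groups its means ran from 2.41 (serum at 1.5 h) to 4.97 (OA at 3 h), and single arrays within a group varied with an SD of 0.85.

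Prdx1 encodes an abundant peroxiredoxin that reduces hydrogen peroxide, and Txnrd1 encodes the cytosolic thioredoxin reductase that recharges thioredoxin. At 24 h Txnrd1 read 2.55, 2.83 and 2.70 in OA mice, against 0.93 and 2.21 in serum mice. The OA arrays were close together and above both serum arrays, of which replicate 1 was far below replicate 2. Txnrd1 was higher in OA than in serum mice by 1.13 (SE 0.39, n = 3 and 2, limma adjusted p = 0.0379). Its serum mean at 24 h, 1.57, was the lowest of the 12 groups, and its OA mean, 2.70, ranked 6 of 12. At late relative to early times Txnrd1 stood at 0.02 in OA mice and at -0.62 in serum mice, and neither passed. Prdx1 read 3.89, 4.23 and 4.05 in OA mice, against 2.35 and 3.67 in serum mice, a difference of 1.05 (SE 0.41, limma adjusted p = 0.0557) that did not pass. Its second, dimmer probe was well above background on all 3 OA arrays and on 0 of 2 serum arrays of 24 h, and was at least 1.49-fold higher in OA mice, the OA mean against the higher, on each serum array, of the probe and the lowest signal well above background. Its fitted difference passed with a limma adjusted p of 0.0136, and without serum 24 h replicate 1, left out after the data were seen, the adjusted p was 0.423.

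At 1, 1.5, 3 and 18 h Txnrd1 differed by 0.08, 0.28, 0.38 and -0.07, and Prdx1 by 0.28, 0.43, 0.69 and -0.39. At 4 h Txnrd1 read 2.31 and 1.26 in OA mice, against 2.97 in the serum array, a difference of -1.18 (SE 0.53, limma adjusted p = 0.475). Without OA 4 h replicate 2 it was -0.66. Prdx1 at 4 h read 3.35 and 2.06 in OA mice, against 3.59 in the serum array, a difference of -0.89 (SE 0.56), or -0.24 without that array.

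In the glutathione arm, Gclc and Gclm encode the catalytic and the modifier subunit of glutamate-cysteine ligase, the rate-limiting enzyme of glutathione synthesis. At 24 h Gclc read 2.58, 2.55 and 2.08 in OA mice, against 0.29 and 2.07 in serum mice. The lowest OA array was at 2.08 and serum replicate 2 just below it at 2.07, and serum replicate 1 was far below. Gclc was higher in OA than in serum mice by 1.22 (SE 0.44, limma adjusted p = 0.0419). Its serum mean at 24 h, 1.18, was the lowest of the 12 groups, and its OA mean, 2.40, ranked 6 of 12. At late relative to early times Gclc stood at -0.14 in OA mice and at -0.49 in serum mice, and neither passed. Gclm at 24 h read 3.90, 2.44 and 2.66 in OA mice, against 3.50 and 2.41 in serum mice, with full overlap and a difference of 0.05 (SE 0.64).

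Gclc also stood above serum without overlap at 1.5 h and 3 h. At 1.5 h it read 2.12, 2.89 and 2.33 in OA mice, against 2.06, 1.68 and 1.39 in serum mice, a difference of 0.74 (SE 0.40, limma adjusted p = 0.516). At 3 h the difference was 0.42 (SE 0.44), and at 4 h it was -0.95 (SE 0.59), with 2.67 and 1.61 in OA mice and 3.10 in the serum array, or -0.42 without OA 4 h replicate 2. Gclm had its only groups without overlap at 1 h, with 3.37, 3.32 and 3.17 in OA mice, against 3.13, 3.12 and 1.78 in serum mice, a difference of 0.61 (SE 0.57, limma adjusted p = 0.830). Over the 30 arrays, after subtraction of the group means, Gclc and Gclm correlated with r = 0.05.

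Gsr encodes glutathione reductase, which returns oxidised glutathione to its reduced form. At 24 h it read 4.21, 5.78 and 5.03 in OA mice, against 3.48 and 4.08 in serum mice, a difference of 1.22 (SE 0.58, limma adjusted p = 0.103). At 3 h it read 5.98, 6.18 and 6.17 in OA mice, against 5.20 and 5.05 in serum mice, a difference of 0.99 (SE 0.58, limma adjusted p = 0.671). Both comparisons had no overlap, and neither passed. Its second probe gave 1.24 at 24 h and 1.02 at 3 h. In serum mice Gsr stood at -1.12 at 18 and 24 h relative to the earlier times (SE 0.40, limma adjusted p = 0.324), and in OA mice at -0.44 (SE 0.33).

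Slc7a11 encodes the cystine transporter subunit xCT, which supplies cysteine for glutathione. Its probe was well above background on 3 of 30 arrays, 2 of 17 OA arrays and 1 of 13 serum arrays, so its values are mostly at the level of background. At 24 h no array of either treatment had it well above background, and the difference of -1.55 (SE 0.97) has no fold. The brightest array was an OA array at 18 h, at -0.57, while the other OA arrays of that time read -4.93 and -4.50.

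Nqo1 encodes a quinone reductase and is a classical marker of NRF2 activity. Its probe was well above background on 13 of 17 OA arrays and on 4 of 13 serum arrays. The 75th percentile of the signal, on which detection also depends, had a median of 95.1 in OA arrays and 63.7 in serum arrays, and its part in this count was not tested. At 1 h Nqo1 read -0.08, -1.58 and -1.42 in OA mice, against -2.80, -1.06 and -4.39 in serum mice, a difference of 1.72 (SE 0.82, limma adjusted p = 0.824) with overlap. Within slide 1 it was 3.51, and across the alternatives tried it ranged from 0.03 to 3.51.

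In serum mice at 1.5, 3 and 4 h every array had the Nqo1 probe not well above background. At 3 h 3 of 3 OA arrays had it well above background, and by group means it was at least 1.40-fold higher in OA mice. That difference did not pass (limma adjusted p = 0.693). The bound was formed as for the second Prdx1 probe. At 1.5 h 2 of 3 OA arrays had it well above background (limma adjusted p = 0.702), and at 4 h 1 of 2. No fold is given at these times. Averaged over the 6 times, the fitted Nqo1 difference was 0.89 (SE 0.39, limma adjusted p = 0.322, with 0 members and 0.00398% of all genes called). It rests on serum values not well above background at 3 of the 6 times, and ranged from 0.0098 with normexp background correction to 1.27 without the 3 arrays that stood apart. At an unadjusted p under 0.05 this mean difference took in Nqo1 alone of the 10 genes, against 14.7% of all genes.

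Sqstm1 encodes p62, an autophagy receptor that also binds KEAP1. It was the flattest of the genes well above background on all arrays, with group means from 2.03 (OA at 4 h) to 3.25 (serum at 24 h). At 24 h it read 3.53, 2.42 and 2.31 in OA mice, against 3.42 and 3.08 in serum mice, a difference of -0.49 (SE 0.49). At 4 h it read 2.51 and 1.54 in OA mice, against 3.14 in the serum array, a difference of -1.12 (SE 0.66, limma adjusted p = 0.498), or -0.63 without OA replicate 2. Its second probe, well above background on 23 of 30 arrays, read -1.32 and 0.45 in OA mice at 4 h, against -0.53 in the serum array.

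The 24 h calls rested on few arrays. Without serum 24 h replicate 1, Gclc differed by 0.33 (limma adjusted p = 0.817), Txnrd1 by 0.49 (0.711), Prdx1 by 0.39 (0.782) and Gsr by 0.92 (0.681), and the number of all genes called at 24 h was 39 in place of 7922. Leaving out OA 24 h replicate 1, 2 or 3 also left 0 of the 10 genes called, with 171, 3604 and 4398 of all genes called. Both serum arrays of 24 h were on slide 1 and no OA array of that time was, so no value within a slide exists at 24 h. With slide as a block Gclc differed by 0.79 (adjusted p = 0.338) and Txnrd1 by 0.87 (0.265). Neither gene passed with scaling to the median of always detected probes (Gclc 0.62, Txnrd1 0.52) or with quantile normalization (Gclc 0.87, Txnrd1 0.58).

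Some other measures of these arrays also differed between treatments at 24 h. Probes for long intergenic RNAs, set against the probes that every array showed well above background, averaged -4.75 in OA mice and -3.14 in serum mice at 24 h on the log2 scale. With it as a covariate, Gclc differed by -0.09, Txnrd1 by 0.09 and Prdx1 by -0.01 (each adjusted p = 1.00). The 8 monocyte markers, among them Lyz2 and Csf1r, had a mean of 3.82 ± 0.21 in OA mice (n = 3), against 1.64 ± 1.23 in serum mice (n = 2), with summed levels of 160 to 212 in OA mice and 26.9 to 92.0 in serum mice. All 8 were well above background on every array of 24 h. The B cell, NK cell and T cell lists averaged 4.49, 3.99 and 5.21 in OA mice, against 3.37, 3.23 and 4.65 in serum mice, with overlapping summed levels. The neutrophil, platelet and erythroid lists differed by 0.40, 0.17 and -0.28, also with overlap. The part of these lists in the 24 h differences of Gclc and Txnrd1 was not tested.

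**Figure D4:**
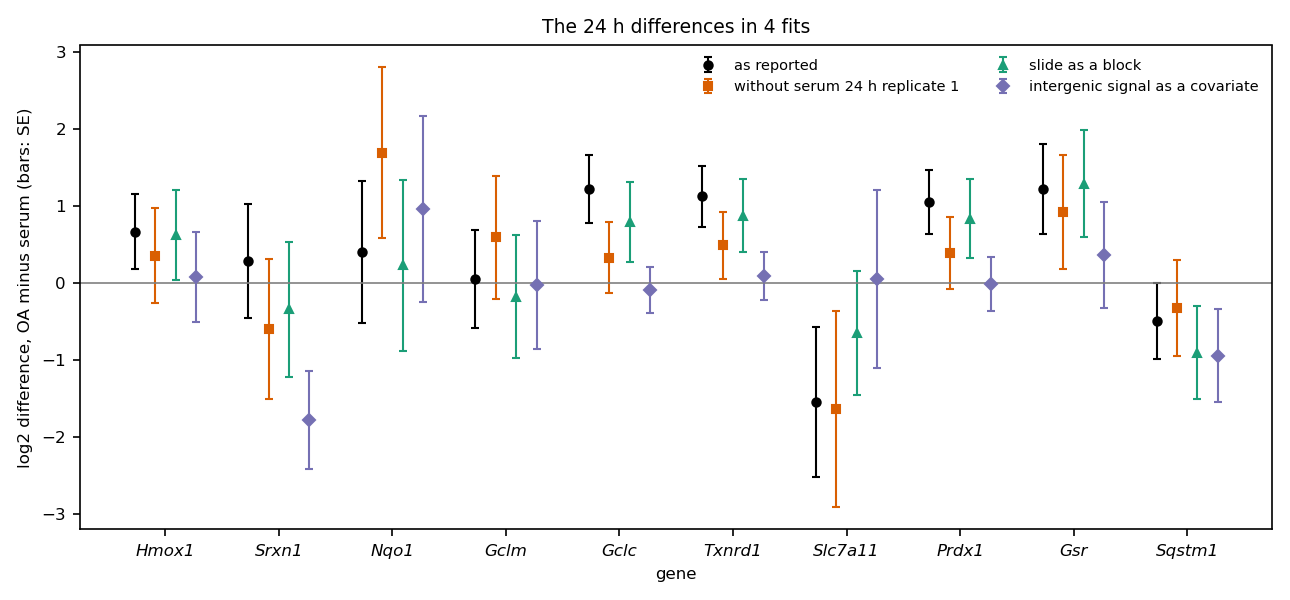
Log2 difference of OA minus serum at 24 h for the 10 genes as reported (black circles), without serum 24 h replicate 1 (orange squares), with slide as a block (green triangles) and with intergenic signal as a covariate (purple diamonds), with bars for limma's SE. Gclc lies at 1.22 as reported and at 0.33, 0.79 and -0.09 in the other fits.

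The genes that work with NRF2 and its targets were followed in 9 lists, of which 67 genes outside the 10 were measured. At 1, 1.5, 3, 4 and 18 h, 0 of the 67 passed limma's adjusted threshold. At 24 h 11 passed as higher and 2 as lower after OA, where 15.6% and 15.9% of all genes passed in these directions. Without serum 24 h replicate 1, and also with slide as a block, 0 of the 67 passed.

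Among the 8 NRF2 regulators, 3 passed as higher and 1 as lower in OA mice at 24 h, with a median of 0.99 where all genes had 0.05. Nfe2l2, the gene of NRF2 itself, read 2.72, 3.45 and 3.36 in OA mice, against 1.01 and 2.22 in serum mice, a difference of 1.55 (SE 0.48, limma adjusted p = 0.0259). Bach1, the repressor at the same elements, read 0.98, 1.55 and 1.38 in OA mice, against -1.98 and -0.54 in serum mice, a difference of 2.56 (SE 0.44, limma adjusted p = 0.0067). For both genes all OA arrays lay above both serum arrays at 24 h. At 18 h Nfe2l2 read 2.98, 3.23 and 2.90 in OA mice, against 2.69 and 3.26 in serum mice. Bach1 at 18 h read 1.29, 1.24 and 0.99 in OA mice, against 0.81 and 1.40 in serum mice. Between 18 and 24 h the serum values of both genes thus moved more than the OA values. Rbx1, the ligase's RING subunit, was higher in OA mice by 1.07 at 24 h, and Nfe2l1, a related factor of the proteasome response, was lower by 1.58 on the log2 scale. Keap1, Cul3, Mafg and Mafk stood at 1.01, 0.97, 0.88 and 0.48 and did not pass. Without serum 24 h replicate 1, Nfe2l2 differed by 0.95 (limma adjusted p = 0.592) and Bach1 by 1.84 (0.202).

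Among the genes of glutathione use and transport, 2 of 10 passed as higher and 1 as lower in OA mice at 24 h. The glutathione transferases Gstm1 and Mgst1 were higher by 1.98 and 1.87, and Gsta4 was lower by 2.71 on the log2 scale. Of the 8 further thioredoxin and peroxiredoxin genes, Prdx5 was higher by 1.26. Of 5 measured genes of NADPH supply, Idh1, a cytosolic isocitrate dehydrogenase, was higher by 1.69. Of 8 genes of heme and iron handling, Hmox2, the constitutive heme oxygenase, was higher by 1.08. Of 8 genes of quinone, carbonyl and xenobiotic handling Cbr3 was higher by 1.68. Of 6 genes of superoxide and hydrogen peroxide turnover Cybb, the core of the phagocyte oxidase, was higher by 2.02. The 6 autophagy receptors and LC3 proteins had 0 calls and a median of -0.18, with Map1lc3b at 1.02. Of the 8 genes of the ATF4 branch Nupr1 was higher by 2.44.

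The members separated by which blood cell markers they followed from array to array. For each gene and each of 7 marker lists, 70 pairs in all, Pearson's r over the 30 arrays was taken as a description. The arrays share their scaling, groups and slides, so no p is given. Srxn1 followed the platelet markers with r = 0.98 (Spearman's rho 0.96). The value was 0.97 in the 17 OA arrays, 0.99 in the 13 serum arrays, 0.98 without the 2 arrays farthest from the list's median and 0.98 for deviations from the 12 group means. The 3 genes whose deviations were closest to those of Srxn1 were Clic4, Alox12 and Pcp4l1, each with r = 0.98. Gclc also followed the platelet list best, with r = 0.77 (rho 0.83; 0.87 in OA arrays and 0.68 in serum arrays), while for deviations from the group means its value with the T cell markers, 0.84, was next to that with the platelet markers, 0.81.

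Gclm and Nqo1 followed the erythroid markers, a list with the hemoglobin genes Hba-a1 and Hbb-b1 and the heme synthesis gene Alas2. For Gclm r was 0.78 (rho 0.79; 0.81 in OA arrays, 0.82 in serum arrays), and its closest genes were Dnajb2, Asb1 and Smox, with r of 0.96, 0.96 and 0.93. For Nqo1 r was 0.71 (rho 0.71; 0.88 in OA arrays, 0.77 in serum arrays), and its closest genes were Trim10, Hipk1 and Dnajb2, with r of 0.92 each. The pair Gclm and Nqo1 had r = 0.82 with each other, and Gclm and Sqstm1 had r = 0.80, after subtraction of the group means.

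Gsr followed the 8 neutrophil markers with r = 0.88 (rho 0.89; 0.87 in OA arrays, 0.92 in serum arrays). Txnrd1 and Prdx1 followed the monocyte markers with r = 0.88 and 0.85 (rho 0.70 and 0.79), and without the 2 arrays farthest from the list's median both were 0.67. Prdx1 stood nearly as close to the B cell markers, with r = 0.82. Hmox1 had no list it followed as closely: its highest value was 0.49 with the neutrophil markers (rho 0.44), with 0.18 in the OA arrays and 0.87 in the serum arrays. For deviations from the group means the monocyte markers gave 0.63 and the neutrophil markers 0.33. The genes whose deviations were closest to those of Hmox1 were Ifitm3, 9030619P08Rik and Ifit3b, with r of 0.88, 0.87 and 0.85. Slc7a11 and Sqstm1 had highest values of 0.29 and 0.42.

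**Figure D5:**
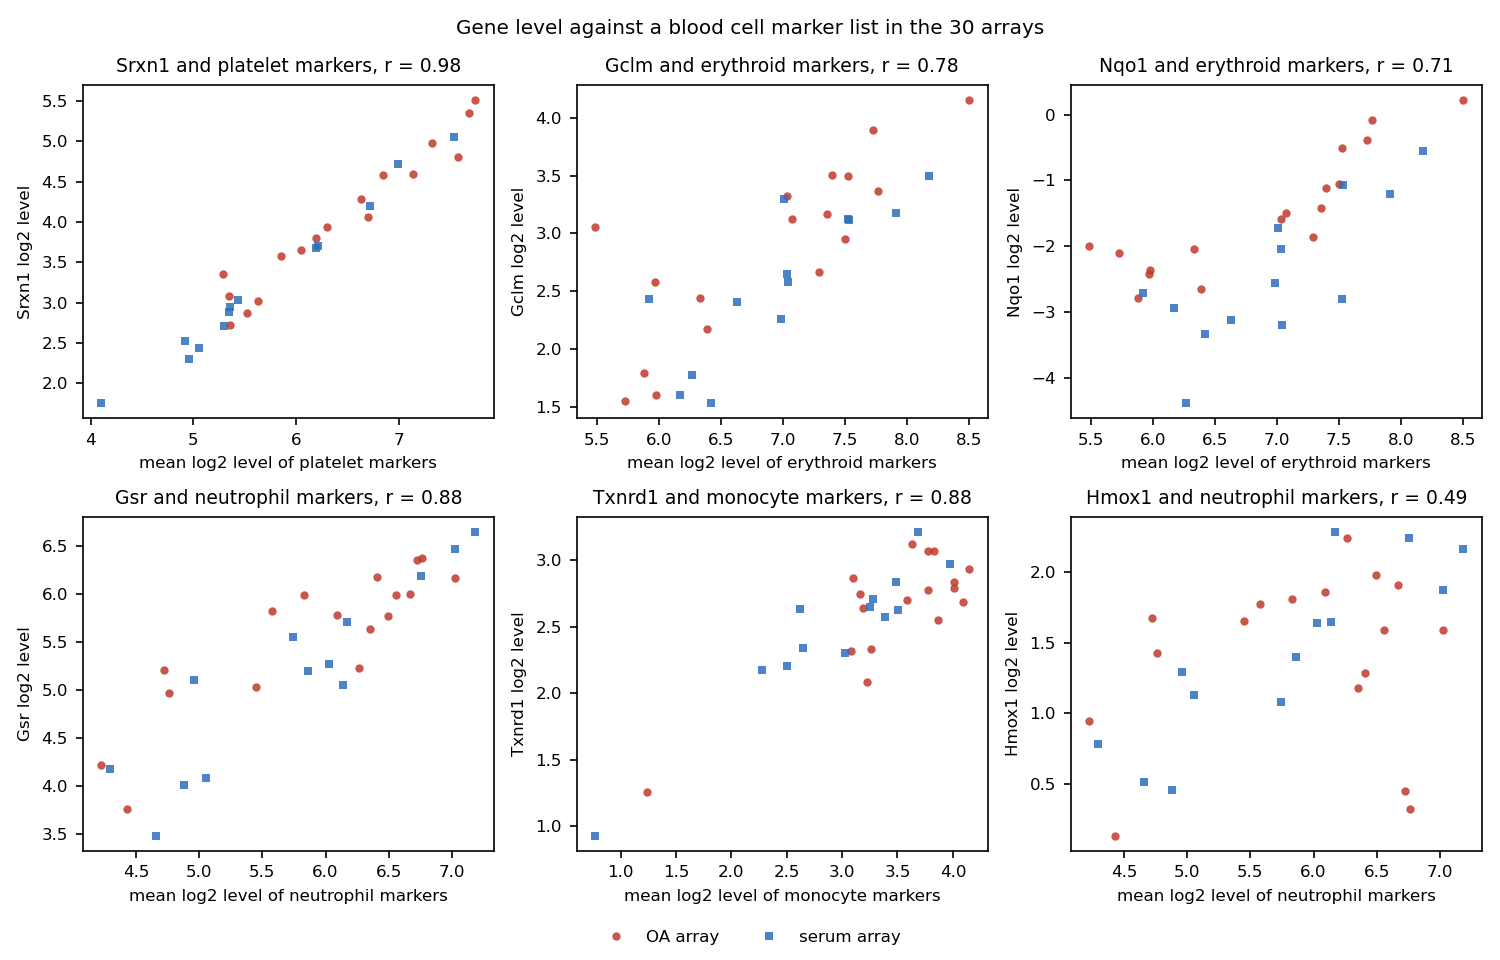
Log2 level of 6 of the genes (y axes) against the mean log2 level of a blood cell marker list (x axes), 1 point per array, with OA arrays as red circles and serum arrays as blue squares. Srxn1 and the platelet markers fall along a line in both treatments (r = 0.98), while the Hmox1 points scatter (r = 0.49).

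The marker lists themselves differed between treatments at some times. At 1.5 h the platelet, monocyte and B cell lists stood higher in OA mice, by 1.88, 0.62 and 0.66, and the erythroid list stood at 5.73 in OA mice against 6.54 in serum mice, a difference of -0.81, and in these 4 lists the summed levels of the arrays did not overlap. At 3 h the platelet and monocyte lists stood higher in OA mice by 1.28 and 1.03 and the T cell list stood at -0.22, also without overlap, beside the 6 members wholly above serum at that time. At 4 h the monocyte, neutrophil, B cell, platelet and T cell lists stood at -1.81, -1.45, -0.88, -0.68 and -0.65 relative to the single serum array. The erythroid and NK cell lists stood at 1.04 and 0.14. These values stand beside the lower values of 8 of the 10 genes at that time. Of the 2 OA arrays at 4 h, replicate 2 was among the 3 arrays that stood apart. At 18 h all 7 lists overlapped between treatments. Of 6 tissue macrophage markers, 4 were measured. Adgre1 was well above background on 30 arrays, Spic on 22, Marco on 19 and Timd4 on 3. The mean log2 level of these markers at 24 h was -1.71 in OA mice and -0.90 in serum mice. It includes values near background, with as few as 1 of the 4 well above background on a serum array. Their summed levels overlapped, at 2.71 to 4.78 in OA mice and 2.70 to 2.83 in serum mice. The part of the marker lists in the differences of the 10 genes was not tested.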

How the data were processed

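Per the file headers, the deposited scanner files hold linear intensity values from Agilent arrays of 1 colour and 62976 spots. Agilent Feature Extraction 10.5.1.1 made them, and its processed signal is corrected for background within each array. The authors' deposited table of 62927 rows matches a log2 scale when set against the scanner values (column medians 5.35 to 5.36). How it was normalized is not stated there, and it served only as an alternative.

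The log2 processed signal minus each array's 75th percentile over non-control probes was analysed, without control and outlier spots. Probes well above background on at least 3 of 30 arrays were kept (35800 of 55681), and the kept probe with the highest mean stood for its gene. limma 3.58.1 in R 4.3.3 was fitted to 25169 genes with 12 groups of treatment and time (18 residual degrees of freedom), two-sided, with Benjamini-Hochberg adjustment over all genes and a threshold of 0.05. The fit was tested on simulated data. Nothing in the labels beyond the count of mice says how replicates arose, so p-values refer to these arrays. Each SE and p-value uses 1 spread per gene, pooled within the 12 groups and moderated by limma, and not that of the compared arrays alone. The pooled SD was 0.47 for Gclc and 0.40 for Txnrd1, against 1.26 and 0.90 in the serum arrays of 24 h. Serum at 4 h, with 1 array, has no spread of its own.

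The members and gene lists were chosen with earlier results of these data known. All members were named, and of the other lists the genes that passed. Likeness was Pearson's r of deviations from the group means. Alternatives were other scalings, filters, blocks, a covariate and left-out arrays.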

Additional observations from a re-analysis of the deposited data

Results flagged for a closer look

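The OA effect on Hmox1, by its brighter probe, had opposite signs at 18 h and 1.5 h. Every OA array was above both serum arrays at 18 h (2.67% of all genes) and below every serum array at 1.5 h (7.02% of all genes). The effect at 18 h was 0.93 and that at 1.5 h was -1.38, and the difference between these effects was 2.31 (SE 0.65, limma adjusted p = 0.876). It did not pass after adjustment over all genes. The dimmer probe differed by 0.30 at 18 h, where its groups overlapped, and by -0.88 at 1.5 h.

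For Gclc, Txnrd1 and Prdx1 the OA arrays lay wholly above serum at 24 h (27.5% of all genes) and wholly below the 1 serum array at 4 h (41% of all genes). The effect at 24 h exceeded that at 4 h by 2.18 for Gclc (SE 0.74, limma adjusted p = 0.0373), by 2.31 for Txnrd1 (SE 0.66, limma adjusted p = 0.0236) and by 1.94 for Prdx1 (SE 0.69, limma adjusted p = 0.0429). Of 25157 genes, 7353 passed this test, or 29.2%. Arrays were then left out, a choice made after the data were seen. Without serum 24 h replicate 1 the values were 1.29 for Gclc, 1.67 for Txnrd1 and 1.27 for Prdx1 (limma adjusted p = 0.248, 0.158 and 0.254), with 45 genes called. Without OA 4 h replicate 2 they were 1.65, 1.78 and 1.29 (limma adjusted p = 0.189, 0.143 and 0.229), with 23 genes called. Without the 3 arrays that stood apart they were 0.76, 1.15 and 0.63 (limma adjusted p = 0.670, 0.507 and 0.711), with 0 genes called and 2763 at an unadjusted p under 0.05. The 3 calls thus did not hold in any of these fits. The intergenic signal differed between treatments in opposite directions at these times. It averaged -4.75 in OA and -3.14 in serum mice at 24 h, and -3.24 in OA mice against -4.40 in the serum array at 4 h. With it as a covariate, the members' median difference was 0.02 in place of 0.54 at 24 h, and -0.14 in place of -0.76 at 4 h. Its part in the difference between the 2 times was not tested.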

How the results depend on the processing

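Precision is limited by the number of arrays, with 1 serum array at 4 h, and Slc7a11 and most serum values of Nqo1 lie near background. At 24 h, 2 members and 7922 genes passed. The members numbered 0 with scaling to the median of probes always well above background (6592 genes), quantile normalization (5591), slide as a block (7), intergenic signal as a covariate (3) or without the 3 arrays that stood apart (54), 1 with the authors' processed values (4839) and 4 with normexp correction (10790). With the replicate block 1 member and 5710 genes passed. The labels do not say whether replicate numbers pair the arrays. Same-numbered OA and serum arrays had correlations of deviations from -0.54 to 0.42, which cannot settle it with so few arrays in a group. The replicate block changed no other count of members. Leaving out 1 array gave 0 to 3 members and 39 to 13015 genes at 24 h. The main fit called 0 members for late against early serum, for the OA effect differing between times and for time in serum. Of all genes it called 37, 2 and 11. The highest member counts with 1 array left out came without serum 24 h replicate 2. That fit leaves 1 serum array at 24 h, so its counts are not given. With the intergenic covariate, signs reversed for Gclc (-0.087) and Prdx1 (-0.013) at 24 h, and for the mean over times of Gclc (-0.055), Txnrd1 (-0.11), Prdx1 (-0.022) and Slc7a11 (0.0073). The Hmox1 mean reversed with normexp (0.0042), slide as a block (0.079) and without the 3 arrays (0.054), and ran from -0.15 to 0.11 with 1 array left out. The Txnrd1 mean reversed with scaling to the median of probes always well above background (-0.0012), quantile normalization (-0.036), authors' values (-0.016) and slide (-0.014), and ran from -0.0058 to 0.21 with 1 array left out. The Slc7a11 mean reversed with quantile normalization (0.19) and authors' values (0.13). The causes were not tested. Without the serum array of 4 h, contrasts that use it have no value.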
